A study of Mus musculus with 12 samples.

Results

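Tight junctions seal the space between neighbouring epithelial cells, and 9 genes of this structure were followed through the conversion of mouse fibroblasts to pluripotent cells. The 9 genes (Cldn3, Cldn4, Cldn6, Cldn7, Ocln, Marveld2, F11r, Tjp3 and Cgn) were taken by symbol from a table of 24098 genes, and all 9 were among the 14178 genes kept because they had an FPKM (fragments scaled by transcript length and by library size) of at least 1 in at least 1 library. In fibroblasts of day 0 (D0), 7 of them were below 1 FPKM. In the SSEA-1+ cells of day 16 (D16S+), the lowest of the 9 was at 3.30 FPKM and the highest at 189.6 FPKM.

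The study sequenced mRNA of 12 mouse cell samples, 1 library for each condition. D0 was unsorted mouse embryonic fibroblasts (MEFs) from mid-gestation embryos, with GFP inserted behind the Oct4 gene and no factors added, and D3 was the same kind of cells 3 days after induction with the pMXs retroviruses for Oct4, Sox2, Klf4 and c-Myc (OSKM). Every later sample of the time course had received the same viruses. Cells of days 6 and 9 were separated with an antibody against Thy-1, a fibroblast surface protein, into D6T-, D9T-, D6T+ and D9T+, and cells of days 12 and 16 by the pluripotent cell carbohydrate SSEA-1 into D12S+, D16S+, D12S- and D16S-. The study treats the Thy-1- and SSEA-1+ cells as the successful route and the others as the unsuccessful route. Fully reprogrammed induced pluripotent stem cells (iPSCs) from MEFs and the ESD3 line of mouse embryonic stem cells (mESCs), without OSKM viruses, were the end points. Per the labels, both were grown in the FF medium also used for reprogramming. The paper's methods instead name mESC medium or a serum replacement medium (KOSR) for iPSCs and ESD3. For reprogramming they list FF medium beside those media. Sorted fractions are populations chosen by 1 surface marker, and in bulk RNA fewer cells that use a gene and less of its RNA in each cell cannot be told apart.

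A tight junction is built in layers. Claudins span the membrane and form the strands that close the gap between cells, and the claudin type sets which ions pass. Occludin (Ocln) and tricellulin (Marveld2), which share the MARVEL domain, lie in the same strands, tricellulin mainly where 3 cells meet, and the adhesion receptor JAM-A (F11r) sits beside them. Under the membrane, ZO proteins such as ZO-3 (Tjp3) and cingulin (Cgn) tie the strands to actin. Fibroblasts are known to lack such a barrier, while embryonic stem cells grow as compact, epithelium-like colonies.

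With 1 library per condition there was no replicate, no replicate error and no test for any difference given here. The error available is the interval of each FPKM from cuffdiff, and for the 9 genes its median half-width was 129.9% of the FPKM. Of the 108 values, 21 had an interval that started above 0, and 2 values, Cldn6 and Cldn7 in D0, were listed at exactly 0, which can also be a failed estimate. The total FPKM of a library ranged from 484968 (D16S+) to 648264 (D0), and the depth relative to D0 from 0.967 (D9T+) to 1.56 (D6T-). The 10 fibroblast markers summed to 14305 FPKM in D0, 474 in iPSCs and 640.4 in mESCs, and the 10 pluripotency markers to 2.23 FPKM in D0, 3662 in iPSCs and 4169 in mESCs.

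The members lie on 7 chromosomes. Positions are from GENCODE M1 on the mm9 build, and each position covers a whole protein-coding gene. Cldn4 (chr5:135420996-135422804, minus strand) and Cldn3 (chr5:135462084-135463342, plus strand) are neighbours 39279 bases apart with 0 protein-coding genes between them. Marveld2 (chr13:101365912-101386926, minus) and Ocln (chr13:101266462-101322673, minus) are also neighbours, 43238 bases apart. Cldn6 (chr17:23816332-23819413, plus) ends 138 bases from Cldn9 (chr17:23819552-23820985, minus), a claudin that is not among the 9. Cldn7 is at chr11:69778281-69781387 (plus), F11r at chr1:173367666-173394734 (plus), Tjp3 at chr10:80735952-80754012 (minus) and Cgn at chr3:94464507-94590414 (minus). The deposited locus of Tjp3, chr10:80730917-80754326, runs past both ends of the annotated gene. That of Cgn, chr3:94563991-94590437, leaves out the 3′ part of the annotated gene. Whether other transcripts lie in the added stretches of the Tjp3 locus was not checked. The last 40 bases of Cldn3 overlap an antisense lincRNA, Wbscr25, and the deposited locus of Cldn3 reaches to the far end of that RNA. Whether strand was used in counting was not given in the sources used here, so reads of Cldn3 and Wbscr25 may not be separable.

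The 250 bases before the most 5′ annotated start of each gene were searched on both strands for 3 short motifs. CAGGTG is the E-box to which the repressors of the Snail and Zeb families bind, AACCNGTT is a form of the motif of the epithelial Grainyhead-like factors, and CCCCNCCC includes the motif of the Klf family. CAGGTG was found for 4 of the 9 genes (Cldn4, Cldn6, F11r and Tjp3) and in 16.9% of the 22227 windows of all protein-coding genes. With the first-named transcript of each gene as the start, it was found for 6 of 9 and in 17.0% of windows, and the most 5′ start was taken up after that count had been seen. AACCNGTT was found for 1 of 9 (Cgn) and in 1.82% of windows, and CCCCNCCC for 6 of 9 and in 35.3%. Matches of different motifs may overlap. The median GC content was 58.4% for the 9 windows and 54.4% for all. A match is only a run of letters in these windows. The windows of 4 genes are printed 5′ to 3′ on the strand of the gene, because they hold the E-box (CAGGTG, or CACCTG from the other strand) or the Grainyhead-like motif (AACCNGTT on either strand), which are in capitals. The windows are mm9 chr5:135422805-135423054 (minus) for Cldn4, chr17:23816082-23816331 (plus) for Cldn6, chr1:173367416-173367665 (plus) for F11r and chr3:94590415-94590664 (minus) for Cgn. The E-box starts 14 bases before the start of Cldn4, 93 before that of Cldn6 and 96 before that of F11r, and the motif of Cgn starts 19 bases before its start. The deposited loci of Tjp3 and Cgn begin further upstream than the annotated genes, so that the window of Tjp3, not printed, and the motif of Cgn lie inside them.
Cldn4: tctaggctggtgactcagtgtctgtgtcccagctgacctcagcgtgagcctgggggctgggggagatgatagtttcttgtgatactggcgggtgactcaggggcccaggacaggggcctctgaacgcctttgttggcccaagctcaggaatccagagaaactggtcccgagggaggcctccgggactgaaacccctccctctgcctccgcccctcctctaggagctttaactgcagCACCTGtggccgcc
Cldn6: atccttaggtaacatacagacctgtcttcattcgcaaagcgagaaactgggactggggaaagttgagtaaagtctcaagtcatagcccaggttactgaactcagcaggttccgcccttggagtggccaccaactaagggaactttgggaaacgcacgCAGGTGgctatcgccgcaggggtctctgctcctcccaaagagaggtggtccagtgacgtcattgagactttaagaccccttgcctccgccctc
F11r: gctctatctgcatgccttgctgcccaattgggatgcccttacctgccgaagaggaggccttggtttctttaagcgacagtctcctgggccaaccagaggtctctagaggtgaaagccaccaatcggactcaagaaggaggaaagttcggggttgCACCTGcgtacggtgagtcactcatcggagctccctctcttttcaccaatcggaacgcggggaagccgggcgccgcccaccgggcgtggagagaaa
Cgn: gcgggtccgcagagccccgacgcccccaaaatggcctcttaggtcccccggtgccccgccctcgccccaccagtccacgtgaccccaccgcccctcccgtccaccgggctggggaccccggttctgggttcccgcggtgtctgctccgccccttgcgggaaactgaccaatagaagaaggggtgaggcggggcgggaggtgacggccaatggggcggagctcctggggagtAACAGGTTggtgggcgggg

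Cldn4, Cldn6 and Cldn7 reached the highest levels among the 9 genes, while the highest level of Cldn3 lay below that of F11r. Cldn4, which encodes a barrier-forming claudin, was at 0.387 FPKM in D0, 1.81 in D3, 3.04 in D6T-, 49.3 in D9T-, 122.6 in D12S+ and 189.6 in D16S+. In the other fractions it was at 1.03 FPKM in D6T+, 16.2 in D9T+, 33.7 in D12S- and 146 in D16S-, and it was at 178 FPKM in iPSCs and 52.3 in mESCs. D16S+ and iPSCs were thus highest and D0 lowest, and on each sorted day the Thy-1- or SSEA-1+ cells were above the other fraction. The interval of D16S+ (12.3 to 367 FPKM) lay above that of D0 (0 to 1.33 FPKM).

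Cldn6, a claudin known from embryonic epithelia and pluripotent cells, was listed at 0 in D0 and was at 0.340 FPKM in D3, 0.693 in D6T-, 6.16 in D9T-, 69.0 in D12S+ and 138 in D16S+. It was at 0.457 FPKM in D6T+, 1.89 in D9T+, 22.1 in D12S- and 78.2 in D16S-. In iPSCs it was at 76.8 FPKM, close to the level of D16S-, and in mESCs at 29.6 FPKM. Cldn6 stayed under 1 FPKM through day 6 on both routes, and its step from D9T- to D12S+, 3.29 on the log2(FPKM + 1) scale, was the largest between successive libraries of the successful route.

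Cldn7, a claudin found along the sides of epithelial cells, was listed at 0 in D0 and was at 0.111 FPKM in D3, 0.718 in D6T-, 10.1 in D9T-, 49.5 in D12S+ and 84.8 in D16S+. The Thy-1+ and SSEA-1- cells held 0.131 FPKM on day 6, 3.27 on day 9, 8.79 on day 12 and 34.1 on day 16. In iPSCs Cldn7 was at 36.0 FPKM and in mESCs at 16.0 FPKM. Its level in D16S+ stood above that of every other library, including both pluripotent lines.

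Cldn3, another sealing claudin, was the only claudin of the 4 above 1 FPKM in D0. It was at 1.37 FPKM in D0, 1.22 in D3, 5.16 in D6T-, 12.8 in D9T-, 31.8 in D12S+ and 37.3 in D16S+. The other fractions were at 3.84 FPKM (D6T+), 14.6 (D9T+), 18.7 (D12S-) and 39.0 (D16S-), and iPSCs were at 36.9 and mESCs at 6.27 FPKM. Both day 16 fractions and iPSCs were thus between 36.9 and 39.0 FPKM, and mESCs were at 16.98% of iPSCs.

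The make-up of the claudins also differed between libraries. The 4 genes summed to 1.75 FPKM in D0, which was 16.6% of the sum over the 22 claudin genes in the table. They summed to 78.5 FPKM in D9T- (74.9%), 450.1 FPKM in D16S+ (96.2%), 297 FPKM in D16S- (89.4%), 328 FPKM in iPSCs (97.0%) and 104 FPKM in mESCs (90.9%). Within the 4, Cldn3 held 77.9% in D0 and 8.29% in D16S+, while Cldn4 held 22.1% in D0, 62.9% in D9T-, 42.1% in D16S+ and 54.4% in iPSCs. FPKM is scaled by transcript length, so these shares compare molecules as far as the lengths used by cuffdiff hold. The D0 shares rest on low values, with Cldn3 at 1.37 FPKM (interval 0 to 4.35) and Cldn4 at 0.387 FPKM (interval 0 to 1.33). Cldn6 and Cldn7 were listed at 0 in D0.

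**Figure D1:**
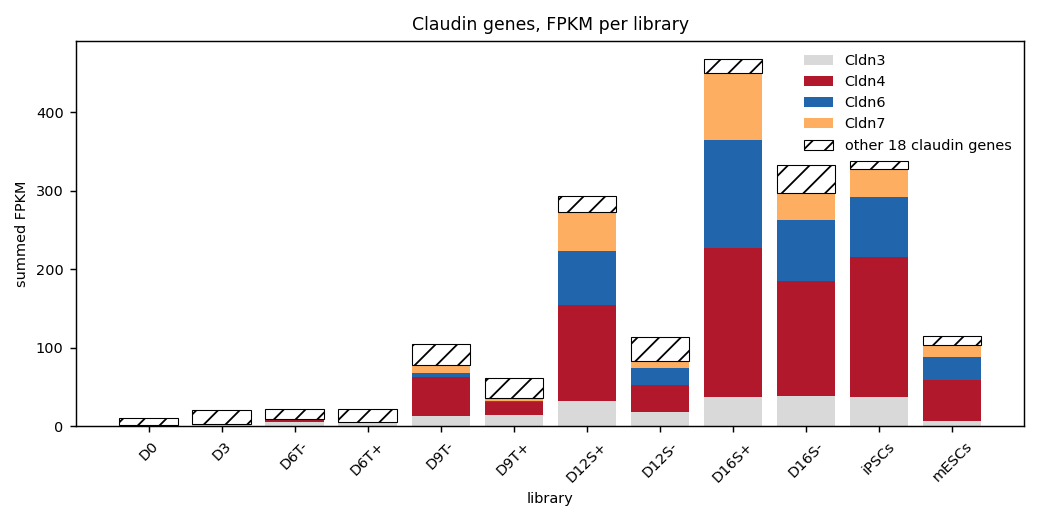
Stacked bars of FPKM for Cldn3, Cldn4, Cldn6, Cldn7 and the summed other 18 claudin genes in each of the 12 libraries (1 library per condition, no error bars). The 4 genes make up 16.6% of the bar in D0 and 96.2% in D16S+.

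The MARVEL genes were low throughout. Ocln was at 0.120 FPKM in D0, 0.131 in D3, 0.357 in D6T-, 1.60 in D9T-, 2.54 in D12S+ and 3.30 in D16S+. It was at 0.310 FPKM in D6T+, 0.872 in D9T+, 2.08 in D12S- and 3.16 in D16S-, and at 3.07 FPKM in iPSCs and 3.74 in mESCs. Ocln was the only one of the 9 genes whose highest level was in mESCs, and at this level a difference between its late libraries was not detectable, as every pair of its intervals overlapped.

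Marveld2 was at 0.173 FPKM in D0, 0.400 in D3, 1.72 in D6T-, 2.33 in D9T-, 2.92 in D12S+ and 3.93 in D16S+. On the other route it was at 0.250 FPKM in D6T+, 1.34 in D9T+, 2.79 in D12S- and 4.29 in D16S-, and its highest level was 5.32 FPKM in iPSCs, against 2.07 FPKM in mESCs. The gap between fractions was widest on day 6, when D6T- was 6.91-fold above D6T+, and on day 12 D12S- was at 95.3% of D12S+.

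F11r, the receptor JAM-A that also serves leukocytes and platelets, was the one member with a sizeable level in fibroblasts. It was at 11.6 FPKM in D0, 25.0 in D3, 16.6 in D6T-, 29.9 in D9T-, 56.6 in D12S+ and 61.2 in D16S+. The other fractions were at 16.0 FPKM (D6T+), 21.9 (D9T+), 45.9 (D12S-) and 63.8 (D16S-), and iPSCs were at 52.5 and mESCs at 37.8 FPKM. Its largest step on the successful route was the first, from D0 to D3, and the widest gap between its fractions was 1.36-fold, on day 9. Of 2457 words of 50 bases in its transcripts, 22 also occurred in transcripts of other genes, while the other 8 members had 0 such words.

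Tjp3, whose product ZO-3 is confined to epithelia more than its relative ZO-1, had the widest gap between the SSEA-1 fractions of the 9 genes. It was at 0.016 FPKM in D0, 0.064 in D3, 1.11 in D6T-, 3.51 in D9T-, 27.8 in D12S+ and 38.0 in D16S+. The other fractions held 0.352 FPKM in D6T+, 1.43 in D9T+, 3.88 in D12S- and 5.02 in D16S-. In iPSCs Tjp3 was at 7.30 FPKM and in mESCs at 15.5 FPKM, so D12S+ and D16S+ stood above both pluripotent lines. All of its intervals reached 0, including that of D16S+ (0 to 80.9 FPKM).

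Cgn, the plaque protein cingulin, was at 0.047 FPKM in D0, 0.415 in D3, 0.258 in D6T-, 1.42 in D9T-, 9.74 in D12S+ and 16.3 in D16S+. It was at 0.179 FPKM in D6T+, 0.573 in D9T+, 2.63 in D12S- and 8.98 in D16S-, and at 19.9 FPKM in iPSCs and 10.4 in mESCs. Cgn was highest in iPSCs, and the intervals of iPSCs and D16S+ lay above that of D0.

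When the 12 levels of each gene were put in order, neighbours in that order had overlapping intervals for all 9 genes. Over all 66 pairs of libraries, the intervals were apart in 17 pairs for Cldn6, 16 for Cldn4 and 5 for Cgn, and in 0 pairs for the other 6 genes. For Cldn6, 4 libraries had an interval that started above 0, and each was by construction apart from the D0 interval of 0 to 0.

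**Figure D2:**
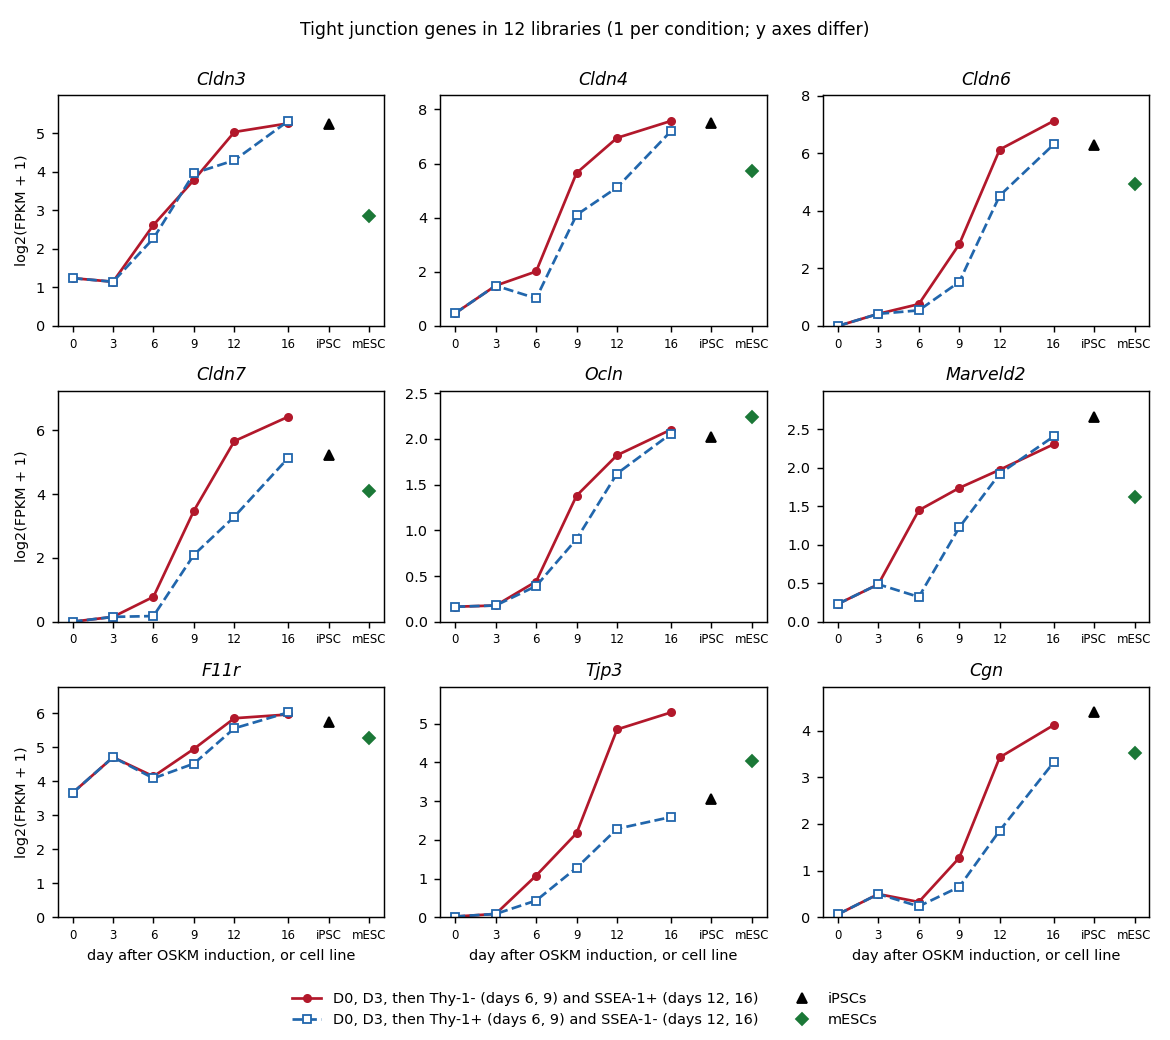
Level of each of the 9 genes as log2(FPKM + 1) against the day after OSKM induction, with iPSCs and mESCs at the right, 1 library per point and no error bars. Red filled circles follow the Thy-1- and SSEA-1+ cells, blue open squares the Thy-1+ and SSEA-1- cells. Tjp3 shows the widest late gap between the lines, while Cldn3, Ocln, Marveld2 and F11r meet at day 16.

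The first question was when the genes came on. A gene was called on from the first library after which it stayed above 1 FPKM. On the successful route, Cldn3 and F11r were on in D0, Cldn4 from D3, Marveld2 and Tjp3 from D6T-, and Cldn6, Cldn7, Ocln and Cgn from D9T-. All 9 were thus on by D9T-, as were 71.8% of all kept genes. Among the 3006 kept genes not above 1 FPKM in D0, 22.2% were on by D9T-, and 7 of the 9 members belong to these. With a limit of 5 FPKM, 5 of the 9 were on by D9T-, against 47.9% of all kept genes. Both routes share D0 and D3. On the unsuccessful route, Marveld2, Tjp3, Cldn6 and Cldn7 were on from D9T+ and Ocln and Cgn from D12S-. Marveld2, Tjp3, Ocln and Cgn therefore passed the limit 1 collection later there, a difference that was not tested.

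Differences are given from here on as differences of log2(FPKM + 1), which understate the change of low genes, and 2-fold means 1 on that scale. From D0 to D3 the median difference of the 9 genes was 0.26, against -0.02 for all kept genes. Cldn4 (1.02) and F11r (1.05) were at least 2-fold higher, as were 5.76% of all kept genes. Cldn3 had the one negative difference, -0.09, which was 0.05 when libraries were scaled to the same total FPKM.

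All 9 genes were at least 2-fold higher in D16S+ than in D0, where 20.0% of all kept genes were. At a 4-fold limit 8 of the 9 were higher, and the share of all kept genes at that limit is not given here. The median difference was 4.05, against 0.05 for all kept genes. Cldn6 differed by 7.12, Cldn4 by 7.10, Cldn7 by 6.42, Tjp3 by 5.26, Cgn by 4.05 and Cldn3 by 4.02. The smallest differences were those of F11r (2.30), Marveld2 (2.07) and Ocln (1.94). No ratio of FPKM is given for Cldn6 and Cldn7, listed at 0 in D0, which can also be a failed estimate. Scaling to the same total FPKM raised the median of all kept genes by 0.31 here, by 0.14 from D0 to D3, by 0.19 from D0 to D16S- and by 0.16 from D0 to iPSCs, and moved it by -0.12 from D16S+ to iPSCs.

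The other comparisons with fibroblasts share the D0 library with this one, so their values stand side by side and do not support each other. In D16S-, all 9 genes were at least 2-fold above D0 (12.8% of all kept genes) with a median of 3.25. In iPSCs all 9 were (18.7% of all kept genes) with a median of 4.00, and in mESCs all 9 were (20.7% of all kept genes) with a median of 3.45. The intervals were apart from those of D0 for Cldn4, Cldn6 and Cgn in D16S+ and iPSCs, for Cldn4 and Cldn6 in D16S- and for Cldn4 in mESCs. The D0 interval of Cldn6 was 0 to 0, so any interval that started above 0 counted as apart from it.

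The fractions sorted on the same day were compared next. On day 6 all 9 genes were higher in D6T- than in D6T+, as were 50.3% of all kept genes. The median difference was 0.35, against 0.0046 for all kept genes. Marveld2 (1.12) was the one gene at least 2-fold higher, against 2.93% of all kept genes. Cldn4 was just under that limit (0.99). D6T- was also the library with the greatest relative depth, at 1.56 times the depth of D0 against 1.26 for D6T+. Relative depth also differed elsewhere, at 1.51 in D16S+ against 0.999 in D16S-, and at 1.49 in D3. The part of depth in the differences of any of these libraries was not tested.

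On day 9, 8 of the 9 genes were higher in D9T-, as were 51.5% of all kept genes. The median was 0.62, against 0.02 for all kept genes. Cldn4 (1.55), Cldn7 (1.38) and Cldn6 (1.31) were at least 2-fold higher, against 1.81% of all kept genes, while Cldn3 was lower by the difference -0.17. The other claudins of the 4 thus differed between the day 9 fractions in the direction opposite to Cldn3.

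On day 12 all 9 genes were higher in D12S+ than in D12S-, as were 48.3% of all kept genes. The median of 1.57, against -0.01 for all kept genes, was the highest of the 4 sorted days. Tjp3 (2.56), Cldn7 (2.37), Cldn4 (1.83), Cldn6 (1.60) and Cgn (1.57) were at least 2-fold higher, against 4.79% of all kept genes. Cldn3 (0.73), F11r (0.29), Ocln (0.20) and Marveld2 (0.05) were nearer to 0. Claudins and plaque genes thus made up the group past 2-fold, and both MARVEL genes were outside it.

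On day 16 the median difference was 0.38, against -0.02 for all kept genes. Tjp3 (2.70) and Cldn7 (1.29) were at least 2-fold higher in D16S+, against 11.8% of all kept genes, a share of 2 in 9 that is near that background. Cldn6 differed by 0.82, Cgn by 0.80 and Cldn4 by 0.38. Cldn3 (-0.06), F11r (-0.06) and Marveld2 (-0.10) were slightly lower in D16S+, and the signs of Cldn3 and F11r turned to 0.05 each with the same total FPKM. Expressed as a share of D16S+, D16S- held 13.2% of the Tjp3 level, 40.2% of Cldn7, 54.95% of Cgn, 56.5% of Cldn6, 77.0% of Cldn4, 96.0% of Ocln, 104% of F11r, 104.5% of Cldn3 and 109% of Marveld2. No intervals were apart between the fractions of any day.

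**Figure D3:**
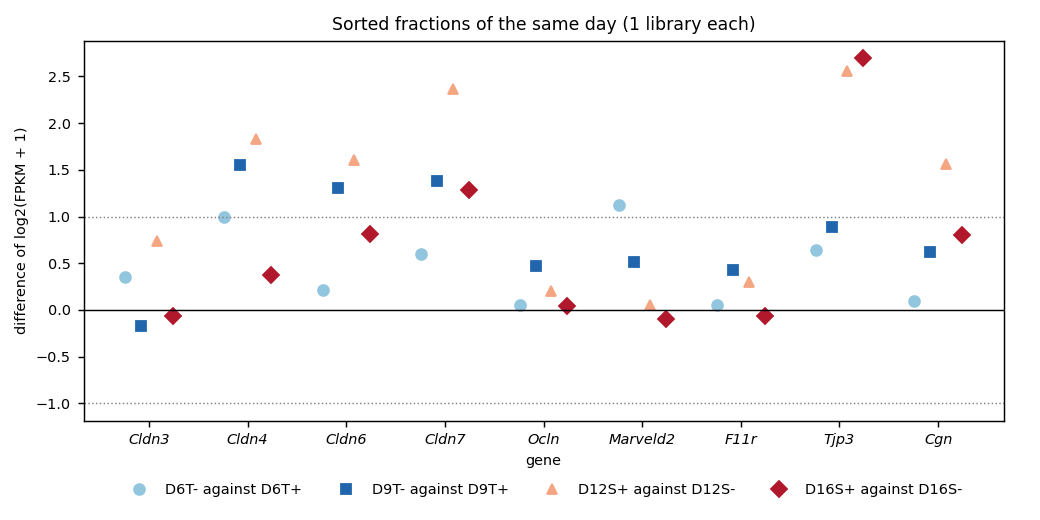
Difference of log2(FPKM + 1) between the sorted fractions of the same day for each of the 9 genes, Thy-1- minus Thy-1+ on days 6 and 9 and SSEA-1+ minus SSEA-1- on days 12 and 16 (1 library per fraction, no error bars). Dotted lines mark 2-fold. Tjp3 keeps a difference above 2.5 on days 12 and 16, while that of Cldn4 is 1.83 on day 12 and 0.38 on day 16.

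The narrower gaps of day 16 restate a larger step in the SSEA-1- cells, since gaps and steps come from the same libraries. Between days 12 and 16 the median step was 0.44 in the SSEA-1+ cells, with 0 of the 9 genes at least 2-fold higher against 3.59% of all kept genes. It was 1.02 in the SSEA-1- cells, with 5 of the 9 at least 2-fold higher against 2.03% of all kept genes. The medians of all kept genes were -0.03 and -0.0020. Those 5 were Cldn4 (2.08), Cldn7 (1.84), Cldn6 (1.78), Cgn (1.46) and Cldn3 (1.02). Tjp3 was the exception among the genes with a wide day 12 gap, since its step was 0.30 in the SSEA-1- cells and 0.44 in the SSEA-1+ cells.

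Markers of other cells moved with these fractions. The 10 fibroblast markers summed to 463 FPKM in D16S+ (8 of 10 at 1 FPKM or more) and 3443 FPKM in D16S- (10 of 10), against 14305 FPKM in D0, and none was at 0. The 10 pluripotency markers summed to 4873 FPKM in D16S+ and 137 FPKM in D16S-. The 8 epithelial markers summed to 853 FPKM in D16S+ (7 of 8 at 1 FPKM or more), 1608 FPKM in D16S- (8 of 8) and 65.1 FPKM in D0 (3 of 8, with Ehf at 0). Within that list the order differed by gene, as Krt8 was at 149 FPKM in D16S+ and 543 in D16S-, and E-cadherin (Cdh1) at 129.9 in D16S+ and 44.6 in D16S-. The part of these cell populations in the differences of the tight junction genes was not tested.

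The other 5 marker lists were summed in the same way. From D16S+ to D16S-, the 7 keratinocyte markers summed to 9.23 and 43.1 FPKM, mostly through Krt14 (8.24 and 39.9 FPKM), the 6 leukocyte markers to 89.2 and 193 FPKM, the 6 trophoblast markers to 84.5 and 47.7 FPKM, the 6 endothelial markers to 43.7 and 16.7 FPKM and the 6 primitive endoderm markers to 5.62 and 10.5 FPKM. In the leukocyte list, Cd68 was at 61.99 FPKM in D16S+ and 115 in D16S-, Laptm5 at 18.99 and 57.3, and Csf1r at 6.63 and 19.9, while Ptprc, which defines leukocytes, was at 0 and 0.027 FPKM. Trp63, which defines basal keratinocytes, was at 0.019 FPKM in D16S+ and 0.117 in D16S-. In the endothelial list, Pecam1 was at 31.9 FPKM in D16S+ and 2.39 in D16S-. Cdh5 (1.89 and 5.77) and Tek (1.91 and 7.74) of that list went the other way. In the trophoblast list, Tfap2c was at 65.7 and 19.2 FPKM, while Hand1 (10.7 and 24.2), Elf5 and Cdx2 went the other way. In the primitive endoderm list, Pdgfra, also a fibroblast marker, and Dab2 were higher in D16S-. Gata4, Sox17 and Sox7 were lower there.

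The end points were compared last. From D16S+ to iPSCs the median difference was -0.09. Tjp3 (-2.23) and Cldn7 (-1.21) were at least 2-fold lower in iPSCs, as were 7.77% of all kept genes, and Cldn6 differed by -0.84. Marveld2 (0.36) and Cgn (0.27) were higher in iPSCs. Tjp3 in iPSCs was at 19.2% of its D16S+ level.

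Between the pluripotent lines, 7 of the 9 genes were higher in iPSCs than in mESCs, as were 47.8% of all kept genes. The median was 1.04, against -0.01 for all kept genes. Cldn3 (2.38), Cldn4 (1.75), Cldn6 (1.35), Cldn7 (1.13) and Marveld2 (1.04) were at least 2-fold higher, against 6.79% of all kept genes. Tjp3 (-0.99) and Ocln (-0.22) were higher in mESCs. All 4 claudins were thus on one side and the plaque genes on both, as Cgn differed by 0.87, and no intervals were apart. Each line had 1 library and the lines differ in origin, so line and cell type cannot be told apart. The epithelial markers summed to 1570 FPKM in iPSCs and 299.8 FPKM in mESCs, mostly through Krt8 and Krt18, and their part was not tested.

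The other genes of the structure were counted by list. Of 64 further tight junction and polarity genes listed, 61 were in the table and 49 were kept. From D0 to D16S+, 4 of 7 kept other claudins were at least 2-fold higher and 1 lower, 3 of 4 other MARVEL and tricellular genes were higher and 1 lower, 3 of 6 other junctional immunoglobulin genes were higher and 3 lower, 3 of 16 other plaque genes were higher and 5 lower, and 6 of 16 polarity genes were higher and 2 lower. These stand beside 20.0% of all kept genes higher and 20.9% lower by the same limit. The medians of the 5 lists were 1.13, 2.66, -0.55, -0.26 and 0.51 in that order.

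Among the other claudins, Cldn9, the neighbour of Cldn6, was listed at 0 in D0 and was at 4.34 FPKM in D16S+ and 7.54 in D16S-. Cldn11, known from myelin and testis, was at 0.400 FPKM in D0, 2.31 in D16S+, 10.2 in D16S- and 0.097 in iPSCs, so that it was higher in the SSEA-1- cells and low in the pluripotent line. Cldn15 went the other way from the members, at 2.97 FPKM in D0 and 0.535 in D16S+, with 4.67 in D16S-. Cldn12 stayed between 3.57 FPKM (mESCs) and 13.1 FPKM (D3), and Cldn5, the claudin of endothelium, did not pass 3.60 FPKM.

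Lsr, which recruits tricellulin to the corners of cells, was at 0.671 FPKM in D0, 38.3 in D16S+, 29.3 in D16S-, 47.3 in iPSCs and 52.1 in mESCs. Its relative Ildr1 was at 0.112 FPKM in D0 and 6.12 in D16S+, and Marveld3, the third tight junction MARVEL gene, was listed at 0 in D0 and was at 5.21 FPKM in D16S+. Marveld1, in contrast, was at 52.8 FPKM in D0 and 16.1 in D16S+, with 34.7 in D16S-. The MARVEL family thus held members highest in fibroblasts and members lowest there.

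The relatives of JAM-A were split as well. Jam2 was at 3.56 FPKM in D0, 25.8 in D16S+, 6.10 in D16S- and 64.97 in iPSCs. Jam3 was at 29.4 FPKM in D0, 3.13 in D16S+ and 22.4 in D16S-. The adhesion genes Cxadr and Esam were higher in D16S- (20.9 and 32.6 FPKM) than in D16S+ (5.68 and 9.88 FPKM), Cxadr having reached 33.2 FPKM in D9T-. Clmp was at 55.8 FPKM in D0 and 1.10 in D16S+, and Igsf5 at 4.31 and 0.022 FPKM.

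Close relatives among the plaque genes differed from the members. Tjp1 (ZO-1), which fibroblasts also use, was at 12.1 FPKM in D0, 21.6 in D16S+, 24.0 in D16S-, 18.8 in iPSCs and 13.9 in mESCs, and it lay between 12.1 and 24.0 FPKM in all 12 libraries. Tjp1 lay outside the rule for named genes and was chosen after its values were seen, as the relative of Tjp3. Cgnl1, the paralog of cingulin, was at 52.9 FPKM in D0, 5.99 in D6T- against 44.3 in D6T+, 5.96 in D9T- against 33.6 in D9T+, and 12.7 in D16S+ against 13.1 in D16S-. Cgnl1 was thus lowest in the Thy-1- cells, in which Cgn was still at or below 1.42 FPKM.

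Of the other scaffolds, Inadl (PATJ) was at 1.49 FPKM in D0 and 18.2 in D16S+, while its relative Mpdz was at 10.8 and 1.94 FPKM. Arhgef18, an activator of RhoA at junctions, was at 14.8 FPKM in D0 and 31.2 in D16S+, and Rab13, a small GTPase of junction traffic, at 23.7 FPKM in D0, 5.54 in D16S+ and 18.2 in D16S-. Ybx3, the ZO-1-associated nucleic acid binding protein, was at 154 FPKM or more in every library. These genes lay on both sides of 0.

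In the polarity list, Crb3, Llgl2 and Prkcz had the largest positive differences from D0 to D16S+. Crb3, the epithelial Crumbs protein, was listed at 0 in D0 and was at 41.9 FPKM in D16S+, 12.6 in D16S- and 24.1 in iPSCs. Llgl2, the epithelial form of Lgl, was at 2.95 FPKM in D0, 95.1 in D16S+, 42.2 in D16S- and 146 in iPSCs, while Llgl1 was at 42.6 FPKM in D0 and 26.2 in D16S+. Prkcz, the atypical protein kinase C of the Par complex, was at 0.290 FPKM in D0 and 11.2 in D16S+. Pard6g (13.3 and 3.41 FPKM) and Lin7a (1.08 and 0.011 FPKM) were lower in D16S+, and Scrib was at 29.1 and 35.8 FPKM.

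**Figure D4:**
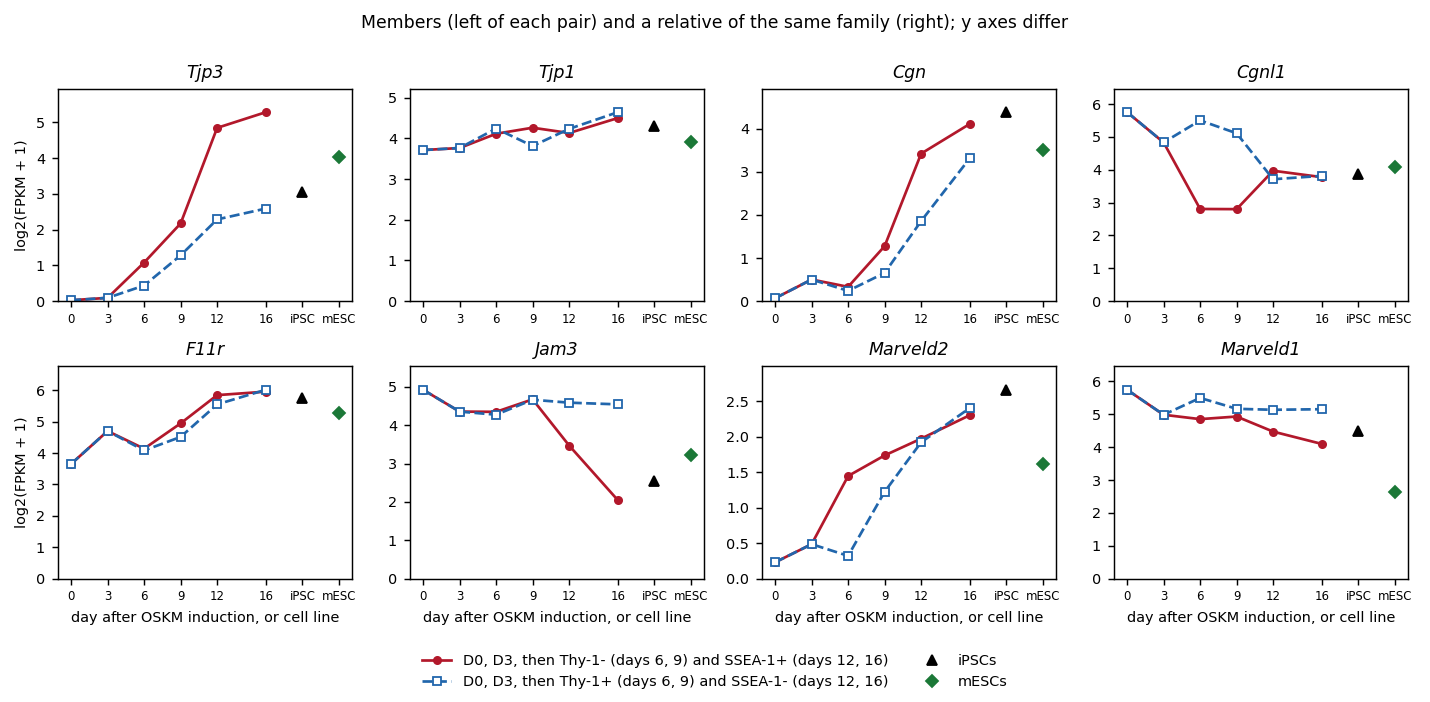
Level as log2(FPKM + 1) against day, with iPSCs and mESCs at the right, for 4 of the 9 genes (Tjp3, Cgn, F11r, Marveld2), each followed at its right by a relative (Tjp1, Cgnl1, Jam3, Marveld1), 1 library per point and no error bars. Red circles are the Thy-1- and SSEA-1+ cells and blue squares the Thy-1+ and SSEA-1- cells. Cgnl1 is at 52.9 FPKM in D0 and 12.7 FPKM in D16S+, while Cgn is at 0.047 and 16.3 FPKM.

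The 9 genes were also described by how alike their patterns were. Over the 12 libraries, the Pearson correlation of log2(FPKM + 1) between pairs of the 9 had a median of 0.911 over 36 pairs, from 0.764 (Cldn3 and Tjp3) to 0.983 (Cldn4 and Cldn7). The libraries share the time course, its starting cells and the difference between fibroblasts and pluripotent cells, so high values are common and no p is given. The kept genes most like the mean of the 9 were Car2 and Prss8 (0.990 each), Unc13d (0.989), Map7 (0.984), Erbb3 (0.982), Kdf1 (0.981), and Bspry and Sh3tc1 (0.980 each). Prss8, a membrane-bound serine protease, was at 0.107 FPKM in D0, 33.1 in D16S+, 27.0 in D16S- and 38.0 in iPSCs.

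For single members, Car4 was most like Cldn6 (0.991), followed by Unc13d (0.984) and Prss8 (0.982). Tuft1 (0.964), Car2 (0.963) and Prss8 (0.958) were most like F11r. Gprasp2 (0.980), C8g (0.979) and Hook1 (0.978) were most like Tjp3, and Hook1 was at 7.79 FPKM in D16S+, 1.40 in D16S-, 2.88 in iPSCs and 3.24 in mESCs.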

How the data were processed

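The authors prepared mRNA libraries of 12 conditions, mapped the reads to the mm9 genome with STAR, removed reads with more than 2 mismatches or more than 1 locus, and estimated expression with cuffdiff. The deposited values are FPKM per gene and library with the interval of cuffdiff. Versions, gene annotation, library scaling and total reads were not given in the sources used here. The labels name a stranded kit. Removing reads with several loci lowers genes with close copies.

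Columns were matched to libraries by day and sorting marker. Values were analysed as log2(FPKM + 1) for genes with at least 1 FPKM in at least 1 library, with Python 3.11.15, pandas 2.3.3 and numpy 2.4.6. Differences of at least 2-fold were counted without a test in 11 comparisons. Relative depth came from the most common ratio of values under 0.5 FPKM. A further 12 columns with cuffdiff's status words were not used. The scripts were tested on simulated data. Members, lists, markers and the naming rule were chosen with earlier results of these data known. From each list the 3 largest rises and 3 largest falls from D0 to D16S+ and the 2 highest levels are named, and the 8 genes most like the 9 members (3 each for Cldn6, F11r and Tjp3). One item named by this rule is left out here. Alternatives were another pseudocount, other filters, other scalings, a 4-fold limit and an onset limit of 5 FPKM. The most 5′ start for upstream windows replaced the first-named transcript after counts with the latter had been seen. Positions and sequences are from the mm9 genome with GENCODE M1.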

Additional observations from a re-analysis of the deposited data

Results flagged for a closer look

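The difference between the SSEA-1+ and SSEA-1- cells had opposite signs on days 12 and 16 for 3 of the 9 genes. On the log2(FPKM + 1) scale it was 0.73 on day 12 and -0.06 on day 16 for Cldn3, 0.29 and -0.06 for F11r, and 0.05 and -0.10 for Marveld2. Each fraction had 1 library, so the change of sign was not tested. With the same total FPKM in every library, the day 16 values of Cldn3 and F11r were 0.05 each.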

How the results depend on the processing

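Of 122 recomputed expression values, 104 stayed within 1.5 times, as a fold or as a count, 18 moved and 0 reversed. Only a median, not a count, could be labelled reversed, and only where its main value was at least 2-fold in either direction. The medians of D0 to D3, of the fractions of days 6, 9 and 16, and of D16S+ to iPSCs were smaller. None of these could be labelled reversed, but each kept its sign under every setting. Scaling by the median of ratios moved 0 values. Leaving out the filter could not move any value, because all 9 genes pass it, and its 22 values are among the 104. With a pseudocount of 0.1 the median differences were 1.08 (D0 to D3), 6.81 (D0 to D16S+), 5.46 (D0 to D16S-), 5.99 (D0 to iPSCs) and 6.16 (D0 to mESCs), and the counts of genes at least 2-fold apart were 5 (D0 to D3), 4 (day 6 fractions) and 5 (day 9 fractions). By construction, a smaller pseudocount enlarges the differences of low genes. With genes of at least 5 FPKM, the D0 to D16S+ median was 4.66 over 8 genes, since Ocln was left out. With the same total FPKM, 2 genes were 2-fold apart on day 6. With a 4-fold limit the counts were 0 (D0 to D3), 0 (day 6), 0 (day 9), 2 (day 12), 1 (day 16), 1 (D16S+ to iPSCs) and 1 (iPSCs and mESCs). For the counts with the pseudocount of 0.1, the same total FPKM and the 4-fold limit, no share of all kept genes is given. They show only how the counts of the 9 genes depend on the setting. With an onset limit of 5 FPKM, 5 genes were on by D9T-. The count of members with CAGGTG upstream was 6 with first-named transcripts, used first, and 4 with the most 5′ start, taken up after the 6 had been seen. No paired analysis was possible because each condition had 1 library, and leaving out a replicate was not possible for the same reason. Cldn3, Cldn7, Ocln, Marveld2 and Tjp3 had 0 intervals that started above 0.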
